A study of Homo sapiens with 4 samples.

Results

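The 39 genes described here are known to respond to transforming growth factor β (TGF-β) in many cell types. They were chosen by name, and all 39 were found among the 20037 protein-coding genes on the main chromosomes of the RefSeq table. The measurement was chromatin immunoprecipitation sequencing (ChIP-seq) of cultured human cells, named HSC in the labels, with stem cells and progenitors as the cell type. Control cells gave a ChIP library and an input library (sheared chromatin without immunoprecipitation), and the other 2 of the 4 libraries are the same pair from cells given TGF-β1 at 20 ng/mL for 2 h. The treatment text is the same for all 4 libraries and also names GDF11 at 100 ng/mL; whether any library received it, which antibody was used, and the source of the cells are not given in the sources used here. Positions are on hg38. Each group held 1 library, so a difference between conditions is a difference between 2 libraries, without a replicate check or a test, and intervals cover counting error only.

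TGF-β ligands are secreted as latent complexes that are stored in the matrix on latent TGF-β binding proteins. Once released, they bind paired receptor kinases, which phosphorylate SMAD proteins, and these enter the nucleus and bind DNA together with other factors. Target genes include inhibitors of the pathway itself, transcription factors, inhibitors of the cell cycle, and matrix and adhesion genes. In blood progenitors the pathway is best known for holding cells out of the cell cycle.

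The ChIP libraries held 36280696 tags (control) and 45984282 tags (TGF-β1) after removal of duplicates, and their peak lists 5307 and 15993 peaks. The 2 lists also differed in tag length, 60 bp (control) and 43 bp (TGF-β1), and in fragment length, 148 bp and 136 bp. A summit, the highest point of a peak, was assigned to a gene that it lay in, or to the nearest protein-coding gene up to 100 kb away. Among marker genes for the labelled cell type, 4 of 8 stem and progenitor genes had a TGF-β1 peak, RUNX1, MECOM and HLF among them. A control peak was assigned to 1 of 8, MECOM. Erythroid genes had 2 of 5 and 0 of 5, other blood cell genes 1 of 4 and 0 of 4, and stromal genes 1 of 4 and 0 of 4. As a background, the share of protein-coding genes with an assigned summit was 25.3% (TGF-β1) and 9.28% (control). With 4 to 8 genes per marker list, none of these counts is a result about the markers. Peak lists hold no expression values, so the identity of the cells was not tested.

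Peaks of the TGF-β1 list were assigned to 10 of the 39 response genes and peaks of the control list to 4. The TGF-β1 genes were LTBP1, LTBP2, FST, ID2, BHLHE40, RUNX2, ZEB1, ZEB2, CDH2 and NEDD9, with 11 peaks in all, and the control genes were LTBP1, BAMBI, RUNX2 and SNAI2, with 1 peak each. As a share, this was 25.6% of the members (Wilson 95% interval 14.6% to 41.1%) in the TGF-β1 list, where 25.3% of all protein-coding genes had a peak. In the control list it was 10.3% (4.06% to 23.6%), where 9.28% of all protein-coding genes had one. Both shares were near that background, so the counts are no result about the response genes as a group. The role groups described below are smaller still, and their counts are no result about those groups either. LTBP1 and RUNX2 had a peak in each list, 5.13% of the members beside 5.35% of all protein-coding genes. No peak of a member overlapped a peak of the other list (0 of 11 and 0 of 4). Among all peaks assigned to a protein-coding gene, 0.696% of the TGF-β1 peaks and 2.45% of the control peaks did, and in the whole lists 4.81% and 14.4%.

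**Figure D1:**
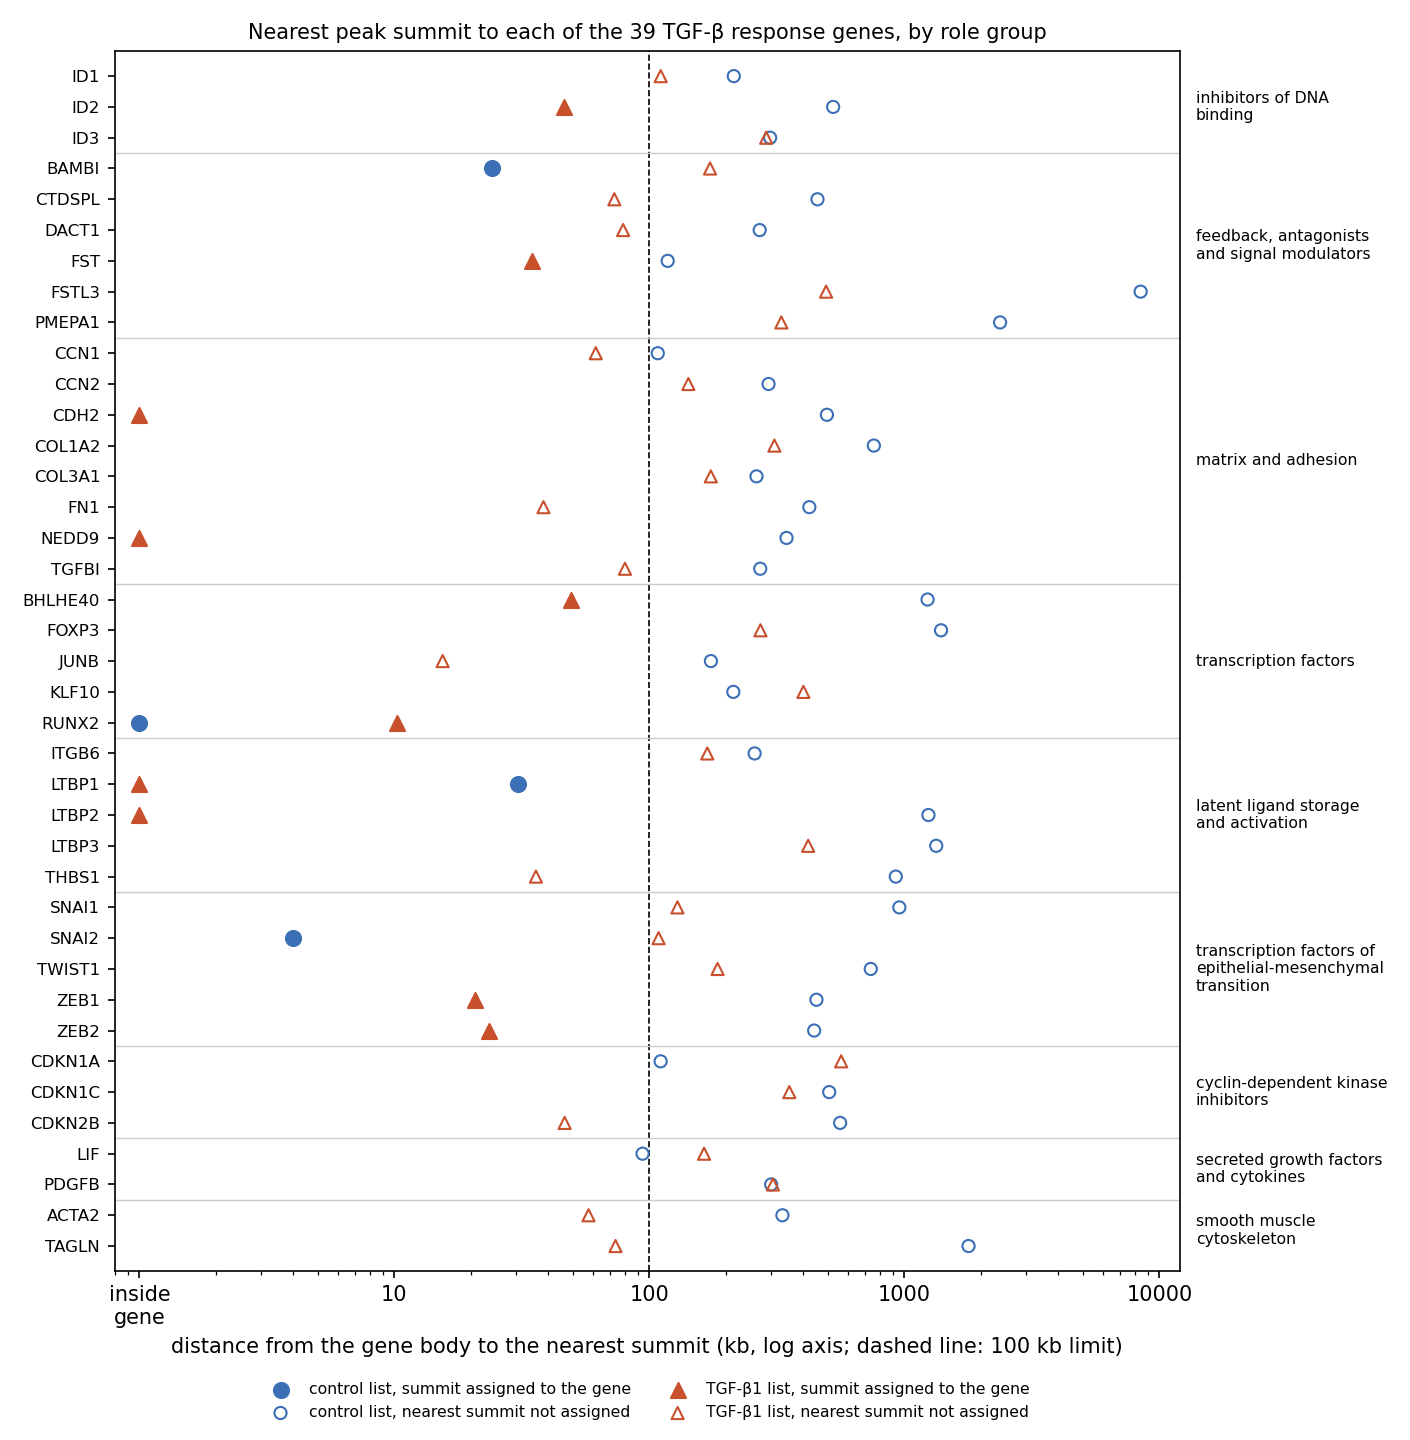
Distance in kb (log axis) from each of the 39 genes to its nearest summit in the control list (blue circles) and the TGF-β1 list (red triangles), with genes ordered by role and filled symbols for summits assigned to the gene. Left of the dashed line at 100 kb, 10 genes have an open triangle, a TGF-β1 summit nearer to another gene, and 1 gene (LIF) an open circle.

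Distances from summits to transcription starts are given here for members alone. Without the same distances over all genes, they show no trait particular to members. The RefSeq promoter table lists 46 starts for 27 of the members; CCN1, KLF10, SNAI1, SNAI2, TWIST1, CDKN1C, COL1A2, COL3A1, LIF, PDGFB, TAGLN and CTDSPL are not in it. The TGF-β1 summit nearest to any of these starts was 7.41 kb away, at an internal start of CDH2, and the nearest control summit was 14.1 kb away, at the first start of RUNX2. The median distance over the 46 starts was 126 kb in the TGF-β1 list and 452 kb in the control list. Genes with several starts count several times in these medians. The control median falls among the closely spaced starts of ZEB1, for example those at 452.1 kb and 452.5 kb. No peak therefore covered a tabled promoter window of a member, and the nearest promoter sequences are shown for the 3 members with a tabled start closest to a peak of their own, as the 250 bases before that start, with 1 start per gene. A further start of LTBP1, 10.3 kb from its TGF-β1 summit, is not shown. They are from RefSeq (GRCh38.p14), 5′ to 3′ on the strand of the gene. Capitals mark matches on either strand to CAGACA (a form of the SMAD binding element, TGTCTG on the other strand) or to TGAGTCA or TGACTCA (the AP-1 site, which binds JUNB among others).

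CDH2 promoter, chr18:28036642-28036891, minus strand, internal start: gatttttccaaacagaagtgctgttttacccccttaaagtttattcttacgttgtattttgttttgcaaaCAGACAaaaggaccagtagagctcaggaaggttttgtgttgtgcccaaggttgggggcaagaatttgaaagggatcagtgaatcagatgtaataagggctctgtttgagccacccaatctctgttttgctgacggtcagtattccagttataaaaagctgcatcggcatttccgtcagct

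LTBP1 promoter, chr2:33134119-33134368, plus strand, internal start: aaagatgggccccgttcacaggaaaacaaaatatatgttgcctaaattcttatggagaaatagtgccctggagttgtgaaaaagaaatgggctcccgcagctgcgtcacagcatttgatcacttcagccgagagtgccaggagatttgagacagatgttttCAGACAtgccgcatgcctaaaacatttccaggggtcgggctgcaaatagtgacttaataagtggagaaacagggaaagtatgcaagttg

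RUNX2 promoter, chr6:45328080-45328329, plus strand, first start: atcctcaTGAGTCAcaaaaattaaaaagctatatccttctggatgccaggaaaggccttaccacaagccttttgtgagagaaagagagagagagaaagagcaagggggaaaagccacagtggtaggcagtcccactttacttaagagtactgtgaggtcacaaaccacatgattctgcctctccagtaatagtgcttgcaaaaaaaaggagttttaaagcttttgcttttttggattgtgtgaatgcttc

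The CDH2 window holds 1 CAGACA, 180 bases before the start, and its TGF-β1 summit lay 7.41 kb further upstream of that start. The LTBP1 window holds 1 CAGACA, 89 bases before the start, with the TGF-β1 summit 10.03 kb upstream of the start. In the RUNX2 window the match is 1 TGAGTCA, 243 bases before the start, and the control summit lay 14.1 kb downstream of it. CAGACA or TGTCTG was found before 13.6% of all 35116 tabled starts and before 7 of the 46 starts of members. For TGACTCA or TGAGTCA the values were 4.20% and 1 of 46. These matches describe the letters of the windows and are not binding sites.

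Among the genes for storage and activation of the latent ligand, LTBP1 and LTBP2 had peaks and LTBP3, ITGB6 and THBS1 had none. LTBP1 (chromosome 2, 32946953 to 33399509) encodes a protein that tethers latent TGF-β to the matrix. Its TGF-β1 peak (33124266 to 33124440, 175 bp) lay inside the gene. The pileup, the number of ChIP tags extended to fragment length over the summit, was 21. The local background is the level the pileup was compared with. It came from input tags in a window of fragment length, 1 kb or 10 kb, or was the genome-wide level of ChIP tags. Here it was 6.88 tags, made up of 7 input tags over the fragment length, each counted as 0.983 after scaling. This gave a fold enrichment of 2.79, at percentile 21.3 of the TGF-β1 list. The −log10 q, the significance that the authors' peak caller gave the pileup over that background, was 2.46; pileup, fold and −log10 q are the authors' values throughout.

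The control peak of LTBP1 was of another kind. It ran from 32916304 to 32916657 (354 bp), 30.5 kb upstream of the gene, with a pileup of 206 over a local background of 132 tags, which was 66.4 times the genome-wide background of 1.99. Behind that background stood 242 input tags, each counted as 0.545 after scaling. The fold was 1.56, at percentile 0.707 of the control list, while the −log10 q was 5.25. Input tags were thus piled up at the same place as ChIP tags, and their part in this peak was not tested. Without peaks over more than 5 times the genome-wide background, 3 of 39 members had a control peak, beside 8.92% of all protein-coding genes. The control and TGF-β1 summits of LTBP1 were 208 kb apart. Another TGF-β1 summit, 42.7 kb from LTBP1, lay inside RASGRP3.

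LTBP2 (chromosome 14, 74498183 to 74612237) encodes a matrix protein of the same family. Its TGF-β1 peak (74564452 to 74564674, 223 bp) lay inside the gene, 47.7 kb downstream of its start, with a pileup of 14 over 2.95 tags, or 3 input tags. The fold was 3.80 and the −log10 q 3.04. The nearest control summit to LTBP2 was 1242 kb away. Near THBS1, which encodes thrombospondin 1, an activator of the latent ligand, 2 TGF-β1 summits lay 35.9 kb and 74.6 kb away, but both were inside the neighbour FSIP1. LTBP3 and ITGB6, the latter the β subunit of an integrin that releases the ligand, had nearest TGF-β1 summits at 419 kb and 169 kb. Their nearest control summits were 1332 kb and 258 kb away.

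Of 6 feedback, antagonist and modulator genes, FST had a peak in the TGF-β1 list and BAMBI in the control list. FST (chromosome 5, 53480629 to 53487134) encodes follistatin, which binds and blocks activins. Its TGF-β1 peak (53521787 to 53521982) lay 34.7 kb downstream of the gene, with a pileup of 18 over 5.90 tags (6 input tags) and a fold of 2.76 (−log10 q 2.04). It was among the weaker peaks of the list, at percentile 19.9 by fold. Another TGF-β1 summit, 94.9 kb from FST, lay inside NDUFS4. The nearest control summit to FST lay 118 kb from the gene. BAMBI (chromosome 10, 28677521 to 28682932) encodes a pseudoreceptor without a kinase domain that dampens the signal. Its control peak (28653264 to 28653443) lay 24.1 kb upstream, with a pileup of 30 over 9.27 tags (17 input tags) and a fold of 3.02 (−log10 q 4.19). In the TGF-β1 list the nearest summit was 173 kb from BAMBI.

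The other members of this group had no assigned peak. DACT1, which encodes a scaffold of Wnt and TGF-β signalling, had a TGF-β1 summit at 78.8 kb, inside KIAA0586. CTDSPL, a phosphatase gene, had 2, at 72.9 kb inside DLEC1 and at 87.3 kb inside ITGA9. The nearest TGF-β1 summits to PMEPA1, which encodes a membrane protein that sequesters SMADs, and FSTL3, a follistatin relative, were 329 kb and 493 kb away. In the control list those of FSTL3 and PMEPA1 were the farthest of all members, at 8436 kb and 2371 kb.

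ID1, ID2 and ID3 encode helix-loop-helix proteins that lack a DNA-binding region and block differentiation factors. ID2 (chromosome 2, 8682056 to 8684461) had a TGF-β1 peak (8635586 to 8635736) 46.4 kb upstream, inside the long non-coding gene LOC105373411. The pileup was 14 over 3.07 tags, a level set by 23 input tags within 1 kb, and the fold was 3.68 with a −log10 q of 2.87. A second TGF-β1 summit, 78.0 kb on the other side of ID2, lay inside KIDINS220. ID1 and ID3 had no summit within 100 kb in either list. Their nearest TGF-β1 summits were at 111 kb and 287 kb, and the nearest control summits to ID1, ID2 and ID3 at 214 kb, 525 kb and 297 kb.

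Of the transcription factor genes BHLHE40, JUNB, KLF10, RUNX2 and FOXP3, RUNX2 had a peak in both lists and BHLHE40 in the TGF-β1 list. RUNX2 (chromosome 6, 45328330 to 45551082) encodes the runt-domain factor that directs bone formation. Its control peak (45342305 to 45342479) lay inside the gene, with a pileup of 18 over 2.18 tags, close to the genome-wide 1.99. The fold of 5.98 ranked 32 among the 5307 control peaks, and the −log10 q was 7.60. The same summit lies inside SUPT3H, a neighbouring gene that overlaps RUNX2, so the peak belongs to both by the rule used. With such doubly assigned summits left out, 3 of 39 members and 9.0% of all protein-coding genes had a control peak.

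The TGF-β1 peak of RUNX2 (45561230 to 45561370) was elsewhere, 10.2 kb past the 3′ end of the gene and 219 kb from the control summit. It had a pileup of 20 over 3.61 tags and a fold of 4.56 (−log10 q 5.65), at percentile 87.2 by fold. Another 2 TGF-β1 summits within 100 kb, at 79.5 kb and 93.9 kb, were inside SUPT3H and outside RUNX2. BHLHE40 (chromosome 3, 4979437 to 4985323) encodes a helix-loop-helix repressor. Its TGF-β1 peak (4930049 to 4930202) lay 49.3 kb upstream, inside the non-coding gene BHLHE40-AS1, with a pileup of 16 over 3.07 tags and a fold of 4.17 (−log10 q 4.02). The nearest control summit to BHLHE40 was 1232 kb away.

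This BHLHE40 summit was the farthest of all assigned ones. The next summits that had a member as nearest gene lay beyond the 100 kb limit, at 142 kb from CCN2 (pileup 16, fold 4.47) and 174 kb from COL3A1 (pileup 19, fold 3.38), both in the TGF-β1 list. JUNB, which encodes an AP-1 subunit, had a TGF-β1 summit 15.5 kb away, with a pileup of 22 and a fold of 3.55. It lay inside HOOK2, and the stretch of genome nearest to JUNB was just 3.6 kb long. KLF10 and FOXP3, a zinc finger gene induced early by TGF-β and the gene for the factor of regulatory T cells, had nearest TGF-β1 summits at 402 kb and 272 kb. The control summits nearest to JUNB, KLF10 and FOXP3 were at 174 kb, 213 kb and 1391 kb.

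Of the 5 transcription factors of epithelial-mesenchymal transition, which repress E-cadherin, ZEB1 and ZEB2 had a TGF-β1 peak and SNAI2 a control peak. The ZEB1 peak (chromosome 10, 31550401 to 31550536) lay 20.7 kb past the 3′ end of the gene (31318417 to 31529804). Its pileup was 16 over 4.91 tags (5 input tags), its fold 2.88 and its −log10 q 2.01. The ZEB2 peak (chromosome 2, 144360537 to 144360693) also lay downstream, 23.5 kb past the end of the gene (144384081 to 144520119). Its pileup of 23 was the highest among the TGF-β1 peaks of members, but over 6.88 tags (7 input tags), so that the fold was 3.05 and the −log10 q 3.27. The nearest control summits were 452 kb from ZEB1 and 442 kb from ZEB2.

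SNAI2 (chromosome 8, 48917598 to 48921429) had a control peak (48913574 to 48913721) 4.00 kb from the gene. Of all assigned summits outside a member this was the nearest to its gene. The pileup was 13, the lowest among member peaks, over the genome-wide background of 1.99 tags, for a fold of 4.68 (−log10 q 3.97). The nearest TGF-β1 summit to SNAI2 was 109 kb away. SNAI1 and TWIST1 had no summit within 100 kb; the nearest TGF-β1 summits were at 129 kb and 185 kb and the nearest control summits at 955 kb and 738 kb.

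Matrix and adhesion genes had 3 TGF-β1 peaks at 2 of 8 genes and no control peak. Of all protein-coding genes, 25.3% (TGF-β1) and 9.28% (control) had a peak. CDH2 (chromosome 18, 27932879 to 28177130) encodes N-cadherin, the adhesion protein of mesenchymal cells, and was the member with 2 peaks. The first (28043987 to 28044153) lay inside the gene with a pileup of 20 over 3.47 tags and a fold of 4.69 (−log10 q 5.90). The second (28192821 to 28193005) lay 15.8 kb upstream with a pileup of 21 over 4.91 tags and a fold of 3.72 (−log10 q 4.29). The nearest control summit to CDH2 was 496 kb away. NEDD9 (chromosome 6, 11183298 to 11382348) encodes a scaffold of focal adhesions. Its TGF-β1 peak (11287164 to 11287311) lay inside the gene, with a pileup of 18 over the genome-wide background of 2.32 tags. Among TGF-β1 peaks of members it had the highest fold, 5.73, and the highest −log10 q, 7.06, and it ranked 225 of 15993 by fold. Another TGF-β1 summit, 84.7 kb from NEDD9, was nearer to TMEM170B. The nearest control summit to NEDD9 was 345 kb away.

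For the other matrix genes the nearest TGF-β1 summits belonged to neighbours or lay far away. FN1, the fibronectin gene, had 3 TGF-β1 summits at 38.4 kb, 66.3 kb and 73.6 kb, all nearer to ATIC. CCN1, which encodes a matrix-associated signalling protein, had 4 between 61.6 kb and 98.2 kb, 1 nearest to DDAH1 and 3 to ZNHIT6. TGFBI, named for its induction by TGF-β, had 1 at 80.2 kb inside LECT2. The collagen genes COL1A2 and COL3A1 and the CCN1 relative CCN2 had none within 100 kb; their nearest TGF-β1 summits were at 309 kb, 174 kb and 142 kb. None of these 6 genes had a control summit within 100 kb, and the nearest was 108 kb from CCN1.

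The inhibitors of cyclin-dependent kinases, which carry the growth arrest by TGF-β in many epithelial cells, had no assigned peak in either list. Over all protein-coding genes 25.3% (TGF-β1) and 9.28% (control) had one, so 0 of 3 is no result about these genes. CDKN2B had a TGF-β1 summit at 46.5 kb, nearer to CDKN2A, with a pileup of 17 and a fold of 3.65. CDKN1A and CDKN1C had nearest TGF-β1 summits at 565 kb and 354 kb and nearest control summits at 111 kb and 507 kb. ACTA2 and TAGLN, genes of the smooth muscle cytoskeleton, had TGF-β1 summits at 57.7 kb and 73.6 kb, nearer to FAS and inside RNF214. The one near ACTA2 had a pileup of 28, the highest of all TGF-β1 summits within 100 kb of a member, and a fold of 3.68. The secreted factor genes LIF and PDGFB had nearest TGF-β1 summits at 164 kb and 305 kb. A control summit 94.0 kb from LIF lay inside HORMAD2.

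**Figure D2:**
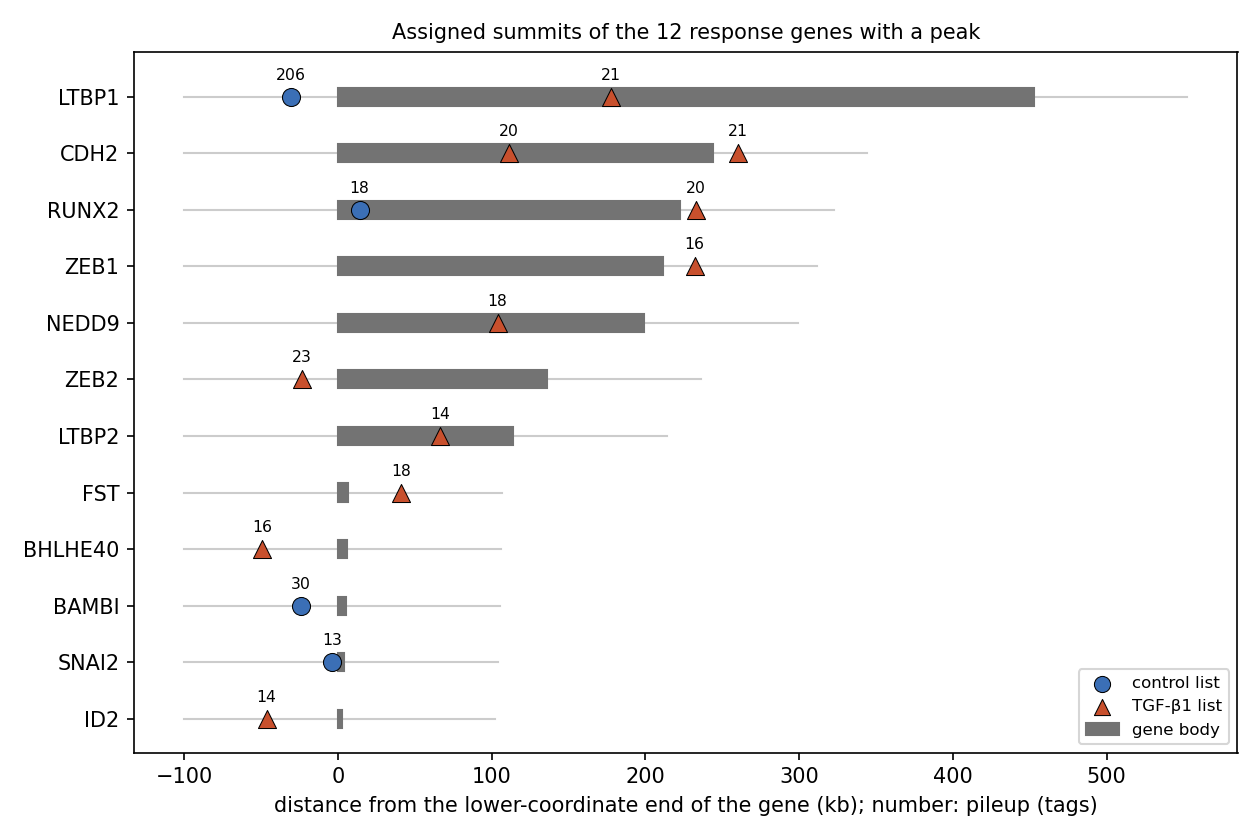
Positions of the assigned summits at the 12 genes with a peak, as distance in kb from the lower-coordinate end of each gene body (grey bar), with the pileup in tags above each summit, control circles and TGF-β1 triangles; thin lines reach 100 kb to each side. Of the 15 summits, 5 lie inside the gene, and at LTBP1 and RUNX2 the control and TGF-β1 summits stand 208 kb and 219 kb apart.

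By position, 4 of the 11 TGF-β1 summits lay inside the gene (36.4%), 3 upstream and 4 downstream of it, while 60.4% of the 8192 TGF-β1 peaks assigned to any protein-coding gene lay inside one. Of the 4 control summits, 1 lay inside the gene (55.0% over the 2329 assigned control peaks), 2 upstream, and for SNAI2 the strand is not in the table. Whether a summit inside a gene lay in an exon, an intron or a UTR was not analysed here. None of the 15 lay in a 1 Mb bin that held 20 or more peaks when the lists were combined.

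In height and enrichment the TGF-β1 peaks of members were near the middle of their list. Their pileups ran from 14 to 23 with a median of 18, the median of all 8192 assigned peaks also being 18 and that of the whole list 19. Folds ran from 2.76 to 5.73 with a median of 3.72, beside 3.62 over assigned peaks and 3.46 over the list. The median −log10 q was 3.27 (2.01 to 7.06), beside 3.39 and 3.78. NEDD9, CDH2 (its inner peak) and RUNX2 were the 3 of 11 with a −log10 q of at least 5, or 27.3%, beside 17.9% of assigned peaks and 31.1% of the list. Local background ran from 2.32 to 6.88 tags, so none of the 11 exceeded 5 times the genome-wide level, as 1.00% of the assigned peaks and 17.4% of the whole list did. Median length was 157 bp, against 159 bp in the list.

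The 4 control peaks spread more widely. Pileups were 13 (SNAI2), 18 (RUNX2), 30 (BAMBI) and 206 (LTBP1), and folds ran the other way for the last of these, at 4.68, 5.98, 3.02 and 1.56. Median fold was 3.85, beside 3.41 over the 2329 assigned control peaks and 2.97 over the list. The share of control peaks over more than 5 times the genome-wide background was 1 of 4 among members, 9.27% among assigned peaks and 40.6% in the whole list. In places at the genome-wide background the lowest pileup with a peak was 10 in the control list and 9 in the TGF-β1 list. Over a higher local background the lowest pileup was higher, for example 14 at 4.91 tags and 18 at 6.88 tags in the TGF-β1 list. A gene without a peak can therefore still have had tags below the level for its local background, which the lists do not show.

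**Figure D3:**
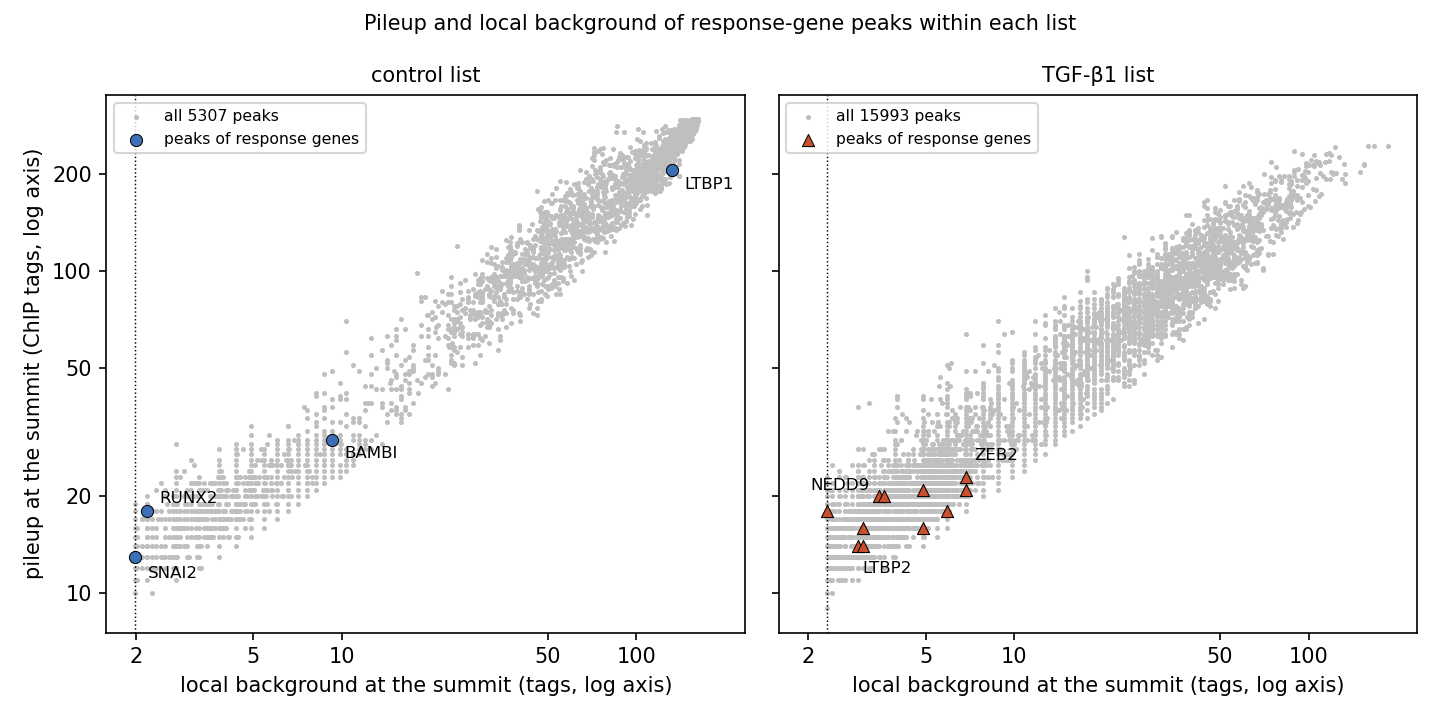
Pileup against local background, both in tags on log axes, for all peaks of the control list (left) and the TGF-β1 list (right) in grey and the peaks of response genes in colour; the dotted line is the genome-wide background of 1.99 and 2.32 tags. The TGF-β1 peaks of members have pileups between 14 and 23 tags over backgrounds of at most 6.88, and the control peak of LTBP1 at 206 tags over 132.

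Of the TGF-β1 peaks of members, 8 of 11 were assigned to genes over 100 kb long, inside or beside them. Over all protein-coding genes, 4534 of the 8192 assigned TGF-β1 peaks were. Of the 9 members over 100 kb long, 7 had one, beside 64.2% of all protein-coding genes of that length, and of the 18 under 10 kb 3 had one (ID2, BHLHE40 and FST), beside 9.4%. Of the 12 members between 10 and 100 kb none had a peak in either list, where 21.7% (TGF-β1) and 6.67% (control) of all such genes had one. In the control list, 2 of 9 long members (27.9% of all long genes) and 2 of 18 short ones (3.37%) had a peak. Median gene length was 168 kb for members with a TGF-β1 peak and 8.17 kb for those without, and over all protein-coding genes 79.1 kb and 17.4 kb.

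Peaks were also counted per stretch of genome, since long genes and genes with distant neighbours can take more summits. The stretch nearest to a member and within 100 kb summed to 5.30 Mb, which gave 2.08 TGF-β1 peaks per Mb (exact Poisson interval 1.04 to 3.72), and the same measure over all protein-coding genes was 3.93 per Mb. For control peaks it was 0.755 per Mb (0.206 to 1.93), beside 1.12. By length, members over 100 kb had 3.02 TGF-β1 peaks per Mb (1.305 to 5.95), beside 4.09 over all such genes. Members of 10 to 100 kb had 0 (0 to 3.08), beside 3.76, and those under 10 kb had 2.07 (0.426 to 6.04), beside 3.20. The interval covers counting error of 11 peaks alone, and the members were not drawn at random. Median distance to the nearest TGF-β1 summit was 80.2 kb over the 39 members and 86.4 kb over all protein-coding genes, and to the nearest control summit 345 kb and 361 kb.

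Other genes of the pathway were counted by the same rule, and 13 of 36 (36.1%) had a TGF-β1 peak, while a control peak was assigned to 4 of 36 (11.1%). Over all protein-coding genes these shares were 25.3% and 9.28%, and each of the lists counted held 6 to 12 genes. Among early response and feedback genes that are not members, 3 of 10 had a TGF-β1 peak (TGIF1, SMURF1 and SMURF2) and none a control peak. Receptors had 5 of 12 and 3 of 12, with TGFBR3 and BMPR1B in both lists, and the SMADs of the signal 4 of 6 and 1 of 6, with SMAD9 in both. Ligand genes had 1 of 8 (TGFB2) and 0 of 8.

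Stricter rules left fewer members with a peak. Inside the gene body it was 1 for the control list (5.5% of all protein-coding genes) and 4 for the TGF-β1 list (15.8%). At a −log10 q of at least 5 it was 2 (2.14%), namely LTBP1 and RUNX2, and 3 (6.55%), namely NEDD9, CDH2 and RUNX2. With the TGF-β1 list cut to the 5307 peaks of highest fold, BHLHE40 joined these 3, so that 4 members remained (11.8%), and with the cut by −log10 q 3 did (7.24%). With genes of all kinds as possible neighbours, the control peaks of SNAI2 and RUNX2 kept their gene (2 members, 7.04%). In the TGF-β1 list ID2, BHLHE40 and RUNX2 lost theirs under that rule, and 7 members were left with a peak (19.2%).

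**Figure D4:**
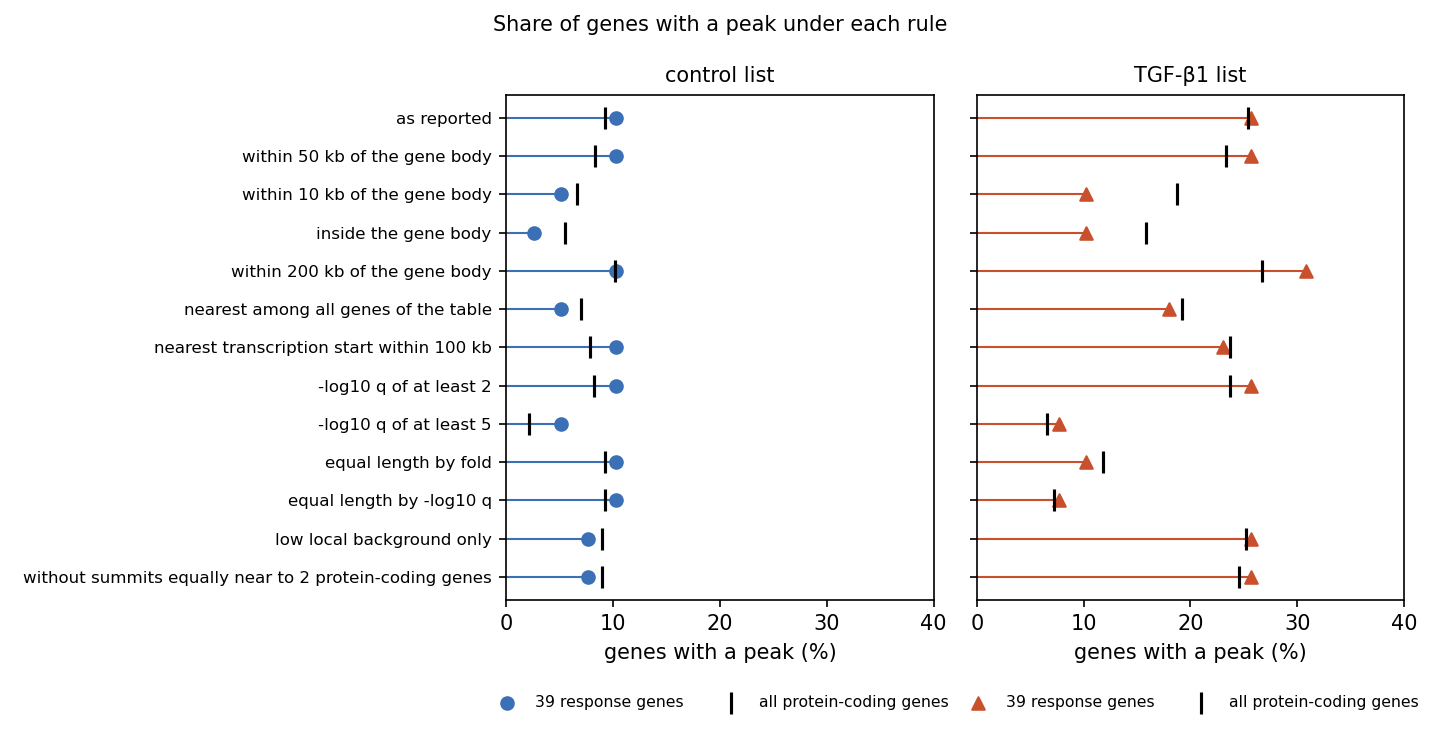
Percentage of the 39 response genes (circles, control list; triangles, TGF-β1 list) and of all 20037 protein-coding genes (black ticks) that had a peak, under the rule used and under each other rule for distance, peak strength or background. The members lie on either side of the black ticks depending on the rule, and within 10 kb of the gene body a TGF-β1 peak was left at 4 members (18.8% of all genes) and a control peak at 2 (6.65%).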

How the data were processed

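Per the submitters' processing notes, the authors aligned reads with Bowtie2 to hg38 and called peaks with MACS2 2.1.0; the file headers name version 2.2.7.1. Per the file headers, each ChIP library was called against its own input at a q limit of 0.05 with an effective genome size of 2700000000 bp and 1 tag kept per position, without pooling. The deposited pileup is a signal in ChIP tags, the deposited fold divides the pileup by the local background, as a ratio after adding 1 to each, and the deposited −log10 p and q are those of the authors' peak caller. Filters on mapping quality or problem regions are not given in the sources used here.

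Local background was computed from pileup and fold. At every peak it equalled the genome-wide level or a whole number of scaled input tags in a window of fragment length, 1 kb or 10 kb (tolerance 0.0001 tags or the rounding of the fold), which gave the input tags quoted. Input libraries held 66537905 (control) and 46802425 tags.

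Genes and starts came from RefSeq tables of GRCh38.p14. All members were named, with every assigned peak, or with the nearest summit where there was none. Members and lists were chosen with earlier results of these data known. The result for 1 gene is not reported here. The assignment was tested on simulated data. Python 3.11.15, pandas 2.3.3 and scipy 1.17.1 were used. There were no replicates and no tests. Distance limits, gene sets, q limits, list lengths and background limits were varied.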

Additional observations from a re-analysis of the deposited data

How the results depend on the processing

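The number of members with a peak depended on how near and how strong a peak had to be, and the number over all protein-coding genes shrank with it in most settings. In the control list, 4 members had a peak, but 2 within 10 kb (6.65% of all protein-coding genes), 1 inside the gene (5.5%), 2 with the nearest gene taken among genes of all kinds (7.04%) and 2 at a −log10 q of at least 5 (2.14%). In the TGF-β1 list, 10 members had a peak, but 4 within 10 kb (18.8%), 4 inside the gene (15.8%), 3 at a −log10 q of at least 5 (6.55%), and, with that list cut to 5307 peaks, 4 by fold (11.8%) and 3 by −log10 q (7.24%). The numbers of member peaks were the same as these numbers of genes, other than the 11 TGF-β1 peaks at 10 genes. With genes of all kinds as possible neighbours, 7 members had a TGF-β1 peak (19.2%). The remaining settings (50 and 200 kb, transcription starts, a −log10 q of at least 2, low local background, and, chosen after seeing the data, leaving out summits equally near to 2 genes) kept each number within 1.5 times of its value. The genes could still change: by transcription starts FST, ZEB1 and ZEB2 lost their TGF-β1 peak, and THBS1 and DACT1 gained one (9 members, 23.7% of all protein-coding genes). For the 4194 protein-coding genes without a tabled start, both gene ends were used. Shared member peaks stayed at 0 up to 5 kb between summits. CDH2, NEDD9 and the control peak of RUNX2 kept their assignment in all 11 planned settings, and FST, ID2, ZEB1 and ZEB2 in 5. The cut to 5307 peaks could not remove a control peak, since the control list held that many. The control peak of RUNX2 was lost when summits equally near to 2 genes were left out. No paired analysis was possible because each group had 1 library, and for the same reason no replicate was left out.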

Other observations

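In the 250 bases before the 46 tabled starts of members, GGCGCG or its complement CGCGCC was present at 19 starts (41.3%), beside 25.2% of all 35116 tabled starts. These 19 starts belong to 16 of the 27 members in the table, among them ID2, JUNB, CDKN1A and LTBP2. Several starts of 1 gene can share bases, and no share over all genes is given for that count. Of the motifs searched, this one stood furthest above its share over all starts, and the difference was not tested. GGCGCC was present at 8 starts (17.4%, beside 16.4%), GTCT or AGAC at 37 (80.4%, beside 77.5%), and CACCTG or CAGGTG, the box bound by SNAI and ZEB factors, at 7 (15.2%, beside 17.5%). AGATAA or TTATCT, the form bound by GATA factors, was present at 2 (ACTA2 and FST; 9.17% of all starts) and CACGTG at 1 (BHLHE40; 6.34%). The palindrome GTCTAGAC was found at none of the 46 and at 0.182% of all starts. Both strands were searched, and GTCT and AGAC lie within GTCTAGAC, and AGAC within CAGACA.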
